A study of Mus musculus with 12 samples.

Results

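The genes described here mark the switch of the mouse small intestine from its suckling to its adult state. Of 10 genes chosen by name, 4 are adult-type (Sis, Treh, Arg2 and Mgam) and 6 are suckling-type (Lct, Ass1, Fcgrt, Lrp2, Cubn and Prdm1). All probes named for them were taken, which gave 14 of 45281 probes and 9 of 19057 genes with a named probe, since no probe is named for Mgam, which was not analysed here.

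RNA was measured on 12 single-colour bead arrays (Illumina MouseWG-6 v2.0), 3 each for normoxia ileum, hyperoxia ileum, normoxia lung and hyperoxia lung. All samples came from C57BL/6 mice (C57Bl/6J in the methods) aged 14 days. The pups had breathed oxygen at a fraction of 0.21 (normoxia) or 0.85 (hyperoxia) from day 3 to day 14 of life, and no label names a transgene or a deletion. The ileum samples were sections of the terminal ileum, and the lung samples are labelled as right lung, whereas the methods give the left lower lobe. Pooled litters, not single pups, were assigned to an exposure and no label gives the litter, so litter and exposure cannot be told apart. No source states that the 3 samples within a group came from different pups. The p-values therefore speak only for the spread among these arrays, part of which may be technical.

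The source name contradicts the labelled tissue on 6 of 12 arrays, and the labelled tissue was used. It was checked with marker genes. Of 8 lung epithelial markers, 6 (Sftpc, Sftpb, Sftpa1, Sftpd, Scgb1a1 and Nkx2-1) were detected on no array labelled ileum. Of 13 intestinal epithelial markers with a probe, 8, among them Vil1, Cdh17 and Alpi, were detected on no array labelled lung. The 8 include Fabp1 and Fabp2, which were detected on no ileum array either and so cannot tell the tissues apart. Each array detected 42.6% to 46.0% of its probes, and replicates correlated with r of 0.971 to 0.992 across probes. The signal over background, taken as the 95th percentile of the probes over the median undetected probe, lay between 15.25 and 15.59 on normoxia ileum arrays and between 11.19 and 12.93 on hyperoxia ones. These ileum groups did not overlap, whereas those of the lung did (15.14 to 16.38 and 14.32 to 18.52), and the part of this in the ileum results was not tested. These are bulk tissues, in which fewer cells of a type and less RNA per cell cannot be told apart.

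In suckling mice the enterocytes, the absorptive cells of the villus, live on milk. Their brush border carries lactase, and their ileal cells take up whole milk proteins by endocytosis and digest them in large lysosomes, while the neonatal Fc receptor carries maternal IgG across. They also make arginine, which milk supplies sparingly. Around weaning these functions recede and the cells turn to sucrase-isomaltase, trehalase and arginase 2, and the repressor Prdm1 (Blimp-1) is known in mice to hold the suckling state in place.

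Promoter sequences are shown for both disaccharidase genes that fell in the ileum (Sis and Treh), for the suckling lactase gene Lct, and for the endocytic receptor genes that rose (Cubn and Lrp2), so that the letters known to be read by regulators of the switch can be seen. They were taken from RefSeq (GRCm38.p6) and give the 250 bases before the annotated start, 5′ to 3′ on the gene's own strand. The promoter set used here held 9 of the 10 genes and lacked Arg2. Capitals mark matches, on either strand, to 5 short motifs: GAAAGT, the core of the Prdm1 motif, TTTATG for the Cdx factors, GTTAAT, part of the Hnf1 site, CAAAGTC for Hnf4 and AGATAA for the Gata factors. A match on the other strand appears as the reverse complement, and no matches overlap in these 5 sequences.
Sis (chr3:72967864-72968113, minus strand): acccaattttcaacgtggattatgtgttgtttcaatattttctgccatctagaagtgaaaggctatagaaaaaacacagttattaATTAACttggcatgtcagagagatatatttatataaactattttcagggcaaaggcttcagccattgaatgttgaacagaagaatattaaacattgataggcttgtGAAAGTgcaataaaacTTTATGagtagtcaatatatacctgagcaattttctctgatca
Treh (chr9:44672983-44673232, plus strand): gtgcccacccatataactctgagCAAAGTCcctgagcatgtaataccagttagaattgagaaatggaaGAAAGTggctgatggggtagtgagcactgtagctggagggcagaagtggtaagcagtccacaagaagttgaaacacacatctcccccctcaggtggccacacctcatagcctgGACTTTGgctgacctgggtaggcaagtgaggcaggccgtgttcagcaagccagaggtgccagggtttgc
Lct (chr1:128328319-128328568, minus strand): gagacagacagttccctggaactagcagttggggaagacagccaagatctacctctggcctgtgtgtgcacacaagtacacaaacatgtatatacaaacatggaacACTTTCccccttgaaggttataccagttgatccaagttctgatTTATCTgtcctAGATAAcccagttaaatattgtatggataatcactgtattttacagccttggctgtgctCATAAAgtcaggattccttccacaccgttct
Cubn (chr2:13491877-13492126, minus strand): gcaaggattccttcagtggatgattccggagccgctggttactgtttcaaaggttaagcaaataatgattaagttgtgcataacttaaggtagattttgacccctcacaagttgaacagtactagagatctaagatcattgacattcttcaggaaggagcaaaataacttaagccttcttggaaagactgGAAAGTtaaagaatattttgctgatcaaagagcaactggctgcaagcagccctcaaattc
Lrp2 (chr2:69586030-69586279, minus strand): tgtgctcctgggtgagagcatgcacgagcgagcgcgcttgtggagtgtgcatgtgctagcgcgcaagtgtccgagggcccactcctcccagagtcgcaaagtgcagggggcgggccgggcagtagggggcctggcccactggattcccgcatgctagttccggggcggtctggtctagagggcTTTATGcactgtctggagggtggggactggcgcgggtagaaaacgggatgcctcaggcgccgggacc

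For Prdm1, whose promoter is not shown, the start used lies inside the gene as RefSeq bounds it. GAAAGT stood in 4 of the 9 member promoters, those of Sis, Treh, Lct and Cubn, and in 12.3% of all 32851 promoters of this length. Its match lies 59 to 54 bases before the start of Sis, 60 to 55 before Cubn, 144 to 139 before Lct and 182 to 177 before Treh. TTTATG stood in 3 (Sis, Lct and Lrp2), against 10.8% of all promoters. GTTAAT stood in Sis alone among the members (6.43% of all), CAAAGTC in Treh alone, at 2 places (3.84% of all), and AGATAA in Lct and Mgam (9.99% of all). Genes that fell (Sis and Treh), one that rose (Cubn) and one that did not pass the test (Lct) thus share the GAAAGT letters. A match describes letters only, and no binding was measured here.

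Sucrase-isomaltase, encoded by Sis (chr3:72888557-72967863), splits sucrose and the branched ends of starch. The values are normalized log2 signals, in which 1 unit is a 2-fold difference, and levels of different probes are not comparable. Its brighter probe read 12.63, 12.46 and 11.72 on the normoxia ileum arrays and 8.82, 9.39 and 10.59 on the hyperoxia ileum arrays. The groups lay apart, with normoxia replicate 3 and hyperoxia replicate 3 nearest to each other. Sis fell by 2.67 on the log2 scale (standard error 0.35, adjusted p = 2.27e-04 in limma), which is 6.37-fold. The dimmer Sis probe read 6.96, 7.21 and 6.48 in normoxia and 4.52, 4.52 and 5.27 in hyperoxia, where it was detected on 1 of 3 arrays. It fell by 2.12 (adjusted p = 5.76e-05, probe by probe), so both probes moved the same way and hyperoxia replicate 3 was the highest of its group on both.

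Trehalase, encoded by Treh (chr9:44673233-44686305), splits trehalose at the brush border and had 1 probe. It read 9.44, 9.14 and 8.85 in normoxia ileum and 6.12, 5.67 and 5.49 in hyperoxia ileum. Every hyperoxia array lay more than 2 log2 units below every normoxia array. Treh fell by 3.38 (standard error 0.19, adjusted p = 1.87e-07), 10.4-fold, and where no background was subtracted it fell by 2.03 (adjusted p = 1.30e-06). Among the 11178 genes tested in the ileum, Treh had the 7th lowest fold change and Sis the 20th lowest.

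Lactase, encoded by Lct (chr1:128284756-128328318), splits the sugar of milk and is the suckling counterpart of these enzymes at the brush border. Its probe read 9.58, 9.58 and 10.54 in normoxia ileum and 10.09, 9.90 and 10.28 in hyperoxia ileum. The groups overlapped, and normoxia replicate 3 was the highest of all 6. The log2 fold change was 0.19 (95% interval -0.30 to 0.67, adjusted p = 0.556), so a fall as large as that of Sis or Treh lies outside the interval.

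**Figure D1:**
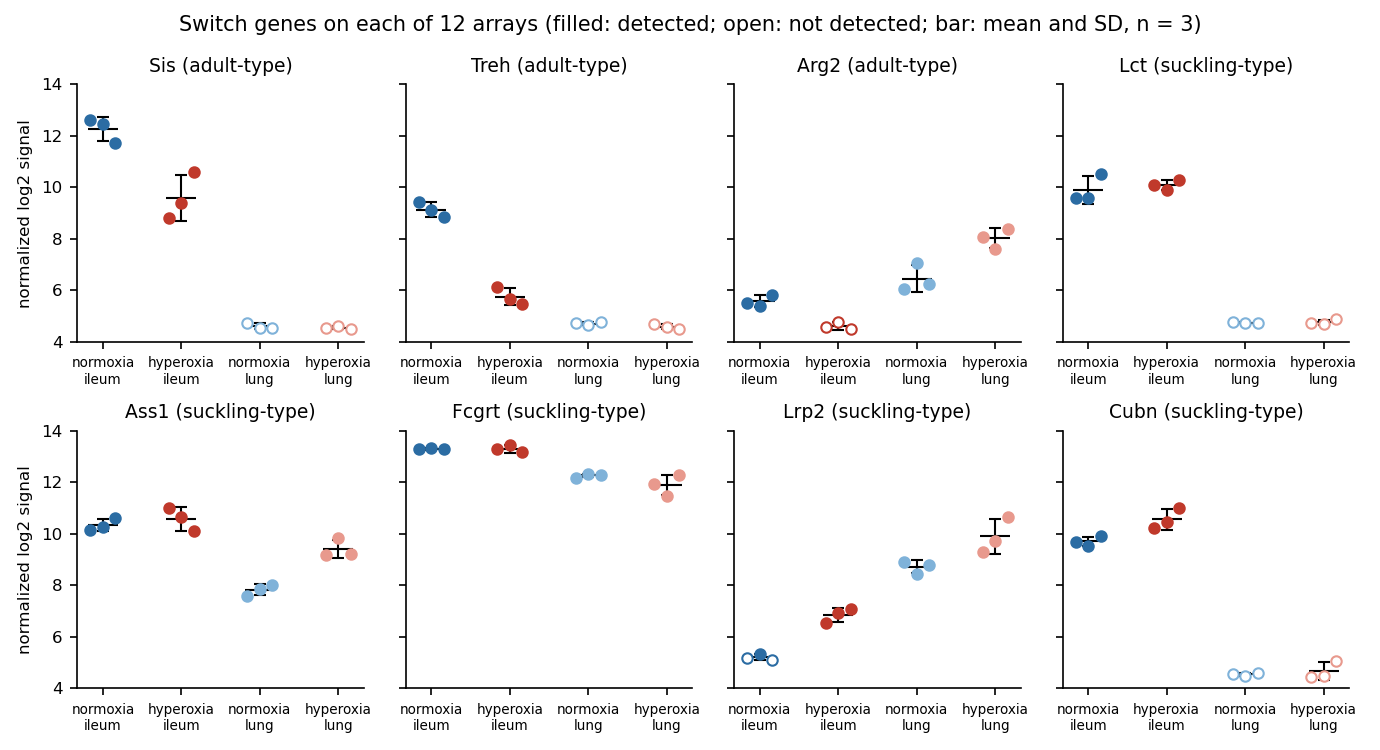
Normalized log2 signal (y axis) of the brightest probe of each tested gene on each of 12 arrays, by group (x axis), where filled points were detected, open points were not, and bars give the mean and SD of 3 arrays. Sis and Treh are lower in hyperoxia ileum and undetected in lung, Lct overlaps between the ileum groups, and Arg2 lies lower in hyperoxia ileum and higher in hyperoxia lung. Levels can be compared between groups within a panel but not between panels.

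Set against lactase on the same array, both adult-type disaccharidases were lower on every hyperoxia ileum array than on any normoxia ileum array. Relative to the normoxia mean, the log2 ratio of Sis to Lct was 0.68, 0.51 and -1.18 in normoxia and -3.64, -2.89 and -2.06 in hyperoxia, a difference of -2.86. The ratio of Treh to Lct was 0.61, 0.32 and -0.93 in normoxia and -3.21, -3.48 and -4.03 in hyperoxia, a difference of -3.57. Normoxia replicate 3 had the lowest normoxia ratio in both. The exact two-sided permutation p was 0.1 for each of these 2 ratios, also 0.1 after adjustment over both, and 0.1 is the smallest p that 3 arrays against 3 allow.

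**Figure D2:**
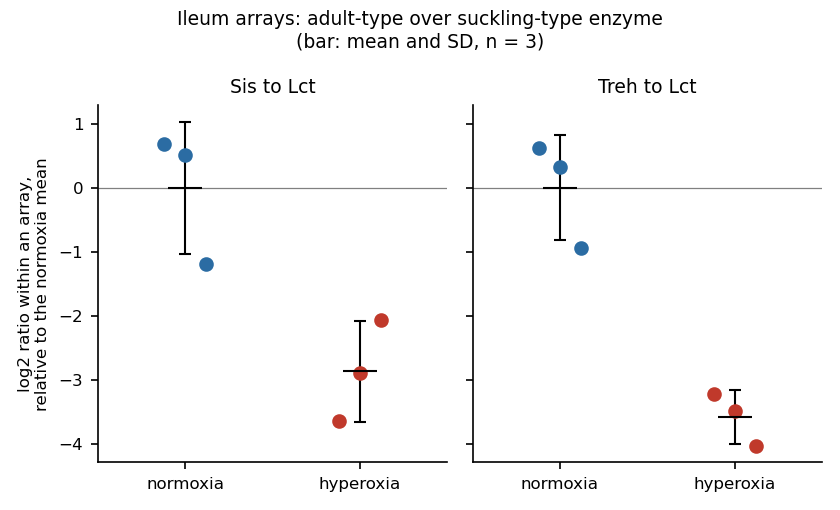
Log2 ratio of Sis to Lct (left) and of Treh to Lct (right) within each ileum array, relative to the mean of the normoxia arrays (y axis), by exposure (x axis), with bars for the mean and SD of 3 arrays. All hyperoxia arrays lie at -2.06 or below and all normoxia arrays at -1.18 or above.

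The mitochondrial arginase Arg2 (chr12:79130788-79156301), which breaks arginine down to ornithine and urea, completes the measured adult-type genes. It was dim in the ileum, at 5.53, 5.39 and 5.82 in normoxia and 4.59, 4.79 and 4.50 in hyperoxia, where it was detected on 0 of 3 arrays. The normoxia arrays all lay above the hyperoxia arrays. Arg2 was therefore at least 1.27-fold lower in hyperoxia ileum, taking the lowest detected signal of each hyperoxia array in place of its own where that was higher (fitted log2 fold change -0.96, standard error 0.26, adjusted p = 0.0166). The call was lost without background correction (adjusted p = 0.105), with 75th percentile scaling (0.0674), with an ordinary linear model (0.0544) and without normoxia ileum replicate 3 (0.0758). In the lung the same probe read 6.06, 7.06 and 6.25 in normoxia and 8.09, 7.61 and 8.40 in hyperoxia. There it rose by 1.57 (standard error 0.26, adjusted p = 6.84e-04), 2.97-fold, with the groups apart, and by 0.90 (adjusted p = 9.03e-04) without background correction.

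Argininosuccinate synthase, encoded by Ass1 (chr2:31470270-31520670), makes the precursor of arginine and is a suckling-type gene of the gut. In the ileum it read 10.16, 10.26 and 10.61 in normoxia and 10.99, 10.66 and 10.10 in hyperoxia, where replicate 3 was the lowest of all 6. The groups overlapped, and the log2 fold change of 0.24 did not pass the test (95% interval -0.28 to 0.76, adjusted p = 0.486). In the lung it read 7.59, 7.86 and 8.02 in normoxia and 9.19, 9.83 and 9.23 in hyperoxia. Ass1 rose there by 1.59 (standard error 0.24, adjusted p = 3.82e-04), 3.01-fold, and the groups lay apart by more than 1 log2 unit.

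The neonatal Fc receptor, encoded by Fcgrt (chr7:45092993-45103822), carries IgG across the gut of suckling rodents and protects it from breakdown in other cells. Its brighter probe read 13.28, 13.35 and 13.31 in normoxia ileum and 13.29, 13.48 and 13.17 in hyperoxia ileum. The means were equal to 2 decimals, with a log2 fold change of 0.00 (95% interval -0.41 to 0.41, adjusted p = 0.999). Its other probe had a log2 fold change of -0.28 in the ileum that did not pass the test (adjusted p = 0.249). The groups of that probe lay apart, at 12.86 to 12.97 in normoxia and 12.39 to 12.79 in hyperoxia. In the lung the brighter probe read 12.19, 12.32 and 12.31 in normoxia and 11.94, 11.48 and 12.29 in hyperoxia. These groups overlapped through hyperoxia replicate 3, and the log2 fold change of -0.37 did not pass (adjusted p = 0.197), although it did without that array (-0.56, adjusted p = 0.0449). The other probe gave -0.46 in the lung (adjusted p = 0.0859), with groups apart at 11.52 to 11.57 in normoxia and 10.82 to 11.36 in hyperoxia.

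Megalin and cubilin, encoded by Lrp2 (chr2:69424335-69586029) and Cubn (chr2:13276338-13491876), are large receptors that take up proteins together from the lumen. The brightest Lrp2 probe read 5.19, 5.33 and 5.10 in normoxia ileum, where it was detected on 1 of 3 arrays, and 6.53, 6.93 and 7.06 in hyperoxia ileum, where it was detected on all. The groups lay apart by more than 1 log2 unit. Lrp2 rose by 1.64 (standard error 0.28, adjusted p = 0.00155), 3.11-fold, and was the 53rd highest of 11178 fold changes, but without background correction the change was 0.62 and did not pass (adjusted p = 0.0607). Of the other Lrp2 probes, one was detected on no array and one on 2 hyperoxia ileum arrays and 1 hyperoxia lung array, so neither was tested.

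Lrp2 rose in the lung as well. Its arrays read 8.92, 8.45 and 8.81 in normoxia and 9.32, 9.74 and 10.65 in hyperoxia, with the groups apart. The rise was 1.17 (standard error 0.28, adjusted p = 0.00810), 2.26-fold. The order of the 4 groups was hyperoxia lung, normoxia lung, hyperoxia ileum and normoxia ileum, and no neighbours in it overlapped. Hyperoxia ileum against normoxia lung was not tested.

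Cubn read 9.69, 9.55 and 9.91 in normoxia ileum and 10.24, 10.45 and 11.01 in hyperoxia ileum. All hyperoxia arrays lay above all normoxia arrays. Cubn rose by 0.85 (standard error 0.22, adjusted p = 0.0136), 1.80-fold. The call was lost with 75th percentile scaling (adjusted p = 0.0501) and without normoxia ileum replicate 2 (adjusted p = 0.0534), with log2 fold changes of 0.72 and 0.77.

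Prdm1 (chr10:44437174-44528558), the repressor of the adult programme, was near the limit of these arrays. Its probes were detected on 1 of 12 arrays, that of hyperoxia ileum replicate 3, and the brighter one read between 4.84 and 5.03 in normoxia ileum and between 4.70 and 5.22 with hyperoxia. The dimmer one read between 4.46 and 4.76 over the 6 ileum arrays. Neither was tested. Plasma cells also express Prdm1. Of 5 tested markers of plasma and B cells 3 were lower in hyperoxia ileum, where 14.1% of all genes were, and the part of these cells was not tested. A change of Prdm1 was not detectable at this signal.

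In the ileum all 3 tested adult-type genes were called lower (Sis, Treh and Arg2), where 14.1% of 11178 genes were. Arg2 passed the detection filter through the normoxia arrays alone, and Lrp2 through all hyperoxia arrays and 1 normoxia array, so their calls are a description and no support for these counts. The members were chosen with earlier results of these data known, so the counts themselves are also a description. Of 5 tested suckling-type genes, 2 were called higher (Lrp2 and Cubn), where 12.7% of genes were, and 3 did not pass (Lct, Ass1 and Fcgrt). None of the 5 was called lower in limma or at an unadjusted p under 0.05. The median log2 fold change was -2.67 over the adult-type and 0.24 over the suckling-type genes, against -0.03 over all genes tested. The exposure groups lay apart for 5 of the 8, against 40.1% of all genes. In the lung 4 members were tested, of which Arg2, Ass1 and Lrp2 were called higher, where 9.90% of 11214 genes were, and 0 were called lower (0 also at an unadjusted p under 0.05), where 10.6% were. The groups lay apart for these 3, against 43.3% of all genes, and Ass1, Arg2 and Lrp2 were the 165th, 172nd and 354th highest fold changes.

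**Figure D3:**
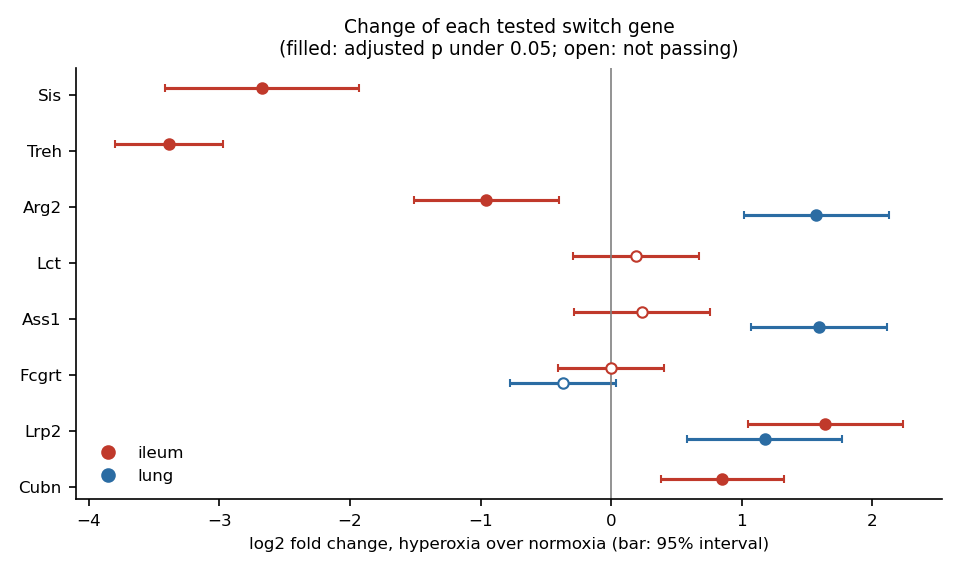
Log2 fold change of hyperoxia over normoxia (x axis) of the 8 tested genes (y axis) in ileum (red) and lung (blue), where filled points have an adjusted p under 0.05 and bars give the 95% interval. The adult-type genes lie below 0 in the ileum, and Arg2 and Ass1 lie at 1.57 and 1.59 in the lung.

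The change of each member in the ileum was then set against its change in the lung. Of 8 members tested, 0 had a difference called higher in the ileum, where 12.3% of 12153 genes had (1, Cubn, at an unadjusted p under 0.05), and 4 had one called lower, where 13.3% had. Arg2 differed by -2.53 (standard error 0.37, adjusted p = 4.22e-04), being lower with hyperoxia in the ileum and higher in the lung. Ass1 differed by -1.35 (standard error 0.34, adjusted p = 0.0122). Sis differed by -2.62 (adjusted p = 0.00227) and Treh by -3.26 (adjusted p = 6.08e-06), but both were detected on 0 lung arrays, so their differences are those of the ileum. For Lrp2 the difference was 0.46 (95% interval -0.38 to 1.31, adjusted p = 0.405), so its rises in the 2 tissues were not shown to differ.

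Between the tissues in normoxia, 6 members were higher in the ileum, where 26.6% of 11622 genes were, and 2 were lower, where 30.3% were. Sis, Treh, Lct and Cubn were detected on no lung array and were at least 132-fold, 15.1-fold, 25.6-fold and 22.5-fold higher in the ileum. Ass1 was 5.75-fold higher there (adjusted p = 7.38e-07) and Fcgrt 2.06-fold higher (adjusted p = 2.97e-04). Lrp2 was lower in the ileum (log2 difference -3.52, adjusted p = 8.91e-08), and its lung arrays all lay above its ileum arrays. Arg2 was lower in the ileum as well (-0.88, adjusted p = 0.00982), a call lost without normoxia lung replicate 2 (adjusted p = 0.0564) and without background correction (0.0661).

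The other genes of the suckling enterocyte's endocytic and lysosomal machinery were taken from a list of 17 that includes Lrp2, Cubn and Fcgrt. In the ileum 11 of 15 tested were called higher and 0 lower, where 12.7% and 14.1% of all genes were, with a median log2 fold change of 0.77 against -0.03 for all genes. At an unadjusted p under 0.05 one gene was lower, Pllp. With 75th percentile scaling 7 were called higher. Lrp2 and Ctsl, both counted here, were detected on all hyperoxia ileum arrays but on only 1 and 2 normoxia ileum arrays. This list and those of arginine metabolism and regulators below were chosen with earlier results of these data known. Their counts are therefore a description. Besides the receptors, those that rose were the adaptor Dab2, the trafficking proteins Rab11a and Snx5, the lysosomal membrane proteins Lamp1 and Lamp2, the glycosidases Glb1 and Gusb, and the proteases Ctsb and Ctsl. Lysosomes are found in every cell type, so these genes are not specific to enterocytes.

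Rab11a, a GTPase of recycling endosomes, read 8.27, 8.76 and 8.76 in normoxia ileum and 9.47, 9.85 and 10.12 in hyperoxia ileum. It rose by 1.21 (standard error 0.21, adjusted p = 0.00190) with the groups apart. The sorting nexin Snx5 read 7.31, 7.13 and 7.34 and then 7.96, 8.79 and 8.94, and rose by 1.30 (adjusted p = 0.00487). Cathepsin L, from Ctsl, read 5.19, 5.89 and 6.66 and then 7.42, 6.99 and 7.25, and rose by 1.31 (adjusted p = 0.00543), or by 0.58 without background correction (adjusted p = 0.00586). These 3 genes and Lrp2 had log2 fold changes above 1.2 and groups that lay apart.

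The 4 that did not pass in the ileum were Fcgrt, Amn (-0.06), Neu1 (0.23) and Pllp (-0.69). Amnionless, the product of Amn, anchors cubilin in the membrane, so the partner of a receptor that rose had a change near 0 (95% interval -0.43 to 0.32). Plasmolipin, the product of Pllp, shapes endosomes of the gut in zebrafish, and it was called lower without normoxia ileum replicate 2 and without hyperoxia ileum replicate 1 (adjusted p down to 0.0153). The calls of Ctsb, Lamp1 and Dab2, the smallest rises at 0.57, 0.49 and 0.65, reached adjusted p of 0.227, 0.312 and 0.0835 over all alternatives and were each lost without normoxia ileum replicate 3 and without hyperoxia ileum replicate 3. Those of Ctsb and Lamp1 were also lost without normoxia ileum replicate 1 or 2 or hyperoxia ileum replicate 2, and that of Lamp1 without normoxia lung replicate 1 or 3.

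In the lung 5 of 13 tested genes of the list were higher, namely Dab2 (1.05), Ctsb (1.04), Lrp2 (1.17), Gusb (0.70) and Neu1 (0.64), and Pllp was lower, where 9.90% and 10.6% of all genes were. The median was 0.40 against 0.02 for all genes. Dab2 was read on another probe in the lung than in the ileum. Neu1 was not called without replicate 1 or 3 of either lung group (adjusted p up to 0.0897). Pllp read 7.14, 7.21 and 6.96 in normoxia lung and was detected on no hyperoxia lung array, at least 3.62-fold lower (adjusted p = 2.01e-04). Markers of macrophages, cells rich in lysosomes, moved in the lung at the same time: 2 of 4 tested were higher, and their mean log2 signal was 10.14 to 10.27 in normoxia and 10.71 to 11.00 in hyperoxia. In the ileum 1 of 4 was higher and 1 lower, where 12.7% and 14.1% of all genes were, and the means overlapped (8.94 to 9.29 and 8.99 to 9.40). The part of macrophages in these changes was not tested.

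**Figure D4:**
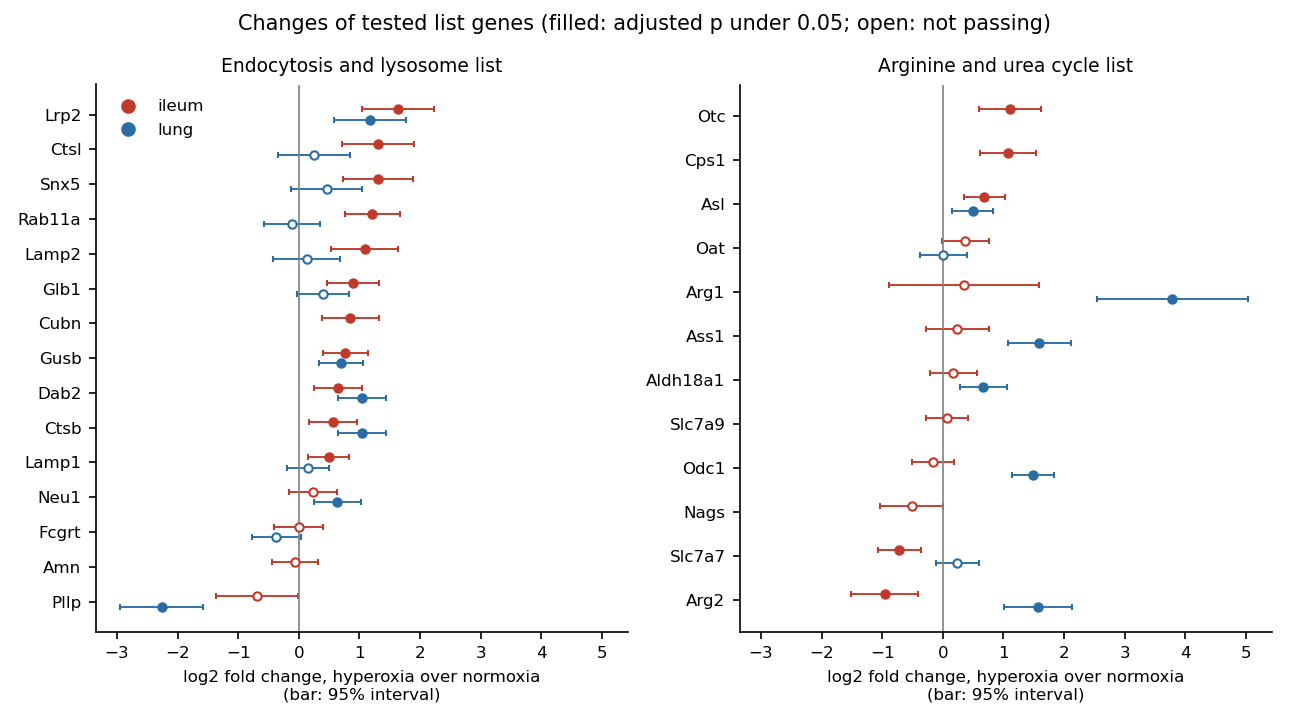
Log2 fold change of hyperoxia over normoxia (x axis) of the tested genes (y axis) of the endocytosis and lysosome list (left) and the arginine and urea cycle list (right) in ileum (red) and lung (blue), where filled points have an adjusted p under 0.05 and bars give the 95% interval. In the ileum 11 of 15 genes of the left list are called higher, and in the lung 6 of 8 genes of the right list are. Dab2 is read on a different probe in each tissue.

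Arginine metabolism was followed in a list of 14 genes that holds Ass1 and Arg2. In the ileum 3 of 12 tested were higher, 2 were lower and 7 did not pass, with a median log2 fold change of 0.21 against -0.03 for all genes. With 12.7% and 14.1% of all genes called, the count of lower genes lay near the background. The 3 were enzymes on the path to citrulline and arginine. Carbamoyl phosphate synthase, from Cps1, read 12.06, 12.27 and 12.30 in normoxia and 12.91, 13.34 and 13.61 in hyperoxia, and rose by 1.08 (adjusted p = 0.00414). Ornithine transcarbamylase, from Otc, rose by 1.11 (adjusted p = 0.00549), and argininosuccinate lyase, from Asl, rose by 0.68 (adjusted p = 0.00814). Ass1, which acts between Otc and Asl, did not pass, as above. Of the same list Oat (0.37, adjusted p = 0.135), Aldh18a1 (0.18, adjusted p = 0.493) and Nags (-0.51, adjusted p = 0.129) did not pass either. Nags was called lower with array weights and without hyperoxia ileum replicate 3. The 2 that fell were Arg2 and the basolateral transporter Slc7a7, which exports arginine and other basic amino acids and read 10.15, 10.13 and 10.25 and then 9.50, 9.39 and 9.49 (-0.72, adjusted p = 0.00828). Arg2 passed the detection filter through the normoxia arrays alone, so its call is a description here too.

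In the lung 6 of 8 tested genes of this list were higher, 0 were lower, and 0 of 8 were lower at an unadjusted p under 0.05. Of all lung genes 9.90% were called higher and 10.6% lower, and the median log2 fold change was 1.07 in the list and 0.02 over all genes. Arg1, the cytosolic arginase, read 6.48, 5.94 and 6.35 in normoxia lung and 8.33, 10.06 and 11.75 in hyperoxia lung. All hyperoxia arrays lay above all normoxia arrays, but they were spread over more than 3 log2 units. Arg1 rose by 3.79 (standard error 0.58, adjusted p = 3.85e-04), by 4.64 without hyperoxia lung replicate 1 and by 2.93 without replicate 3. In the ileum it read 5.58 to 6.44 over all 6 arrays, and its change of 0.34 did not pass (adjusted p = 0.685). Ornithine decarboxylase, from Odc1, which starts polyamine synthesis, rose by 1.48 (adjusted p = 2.45e-05), and in the ileum its change was -0.17 (adjusted p = 0.467).

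The remaining 2 that rose in the lung besides Ass1 and Arg2 were Aldh18a1 (0.67, adjusted p = 0.0182) and Asl (0.49, adjusted p = 0.0405). Asl was not called without any one of 6 arrays (adjusted p up to 0.117), which were all lung arrays but hyperoxia replicate 2, and normoxia ileum replicate 3. It was also not called without background correction (0.16, adjusted p = 0.243), with the mean of its probes (0.21, adjusted p = 0.326), with 75th percentile scaling, with trend and robust moderation or with the replicate block. Aldh18a1 was not called without normoxia lung replicate 1 or hyperoxia lung replicate 2 (adjusted p up to 0.0965). Oat and Slc7a7 did not pass. Cps1 and Otc, which rose in the ileum, were detected on no lung array. Endothelial cells also express Ass1. Of 6 endothelial markers 5 were lower in hyperoxia lung, where 10.6% of all genes were. Their mean log2 signal was 11.01 to 11.15 in normoxia and 9.82 to 10.18 in hyperoxia. Macrophages, whose marker levels are given above, also express Arg1 and Arg2. The part of either cell type was not tested.

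Of 16 regulators linked to the switch or to enterocyte identity, 10 were tested in the ileum. None was called higher in limma or at an unadjusted p under 0.05, and 4 were called lower, where 14.1% of all genes were, with a median log2 fold change of -0.20 against -0.03. The caudal homeobox factor Cdx1 read 10.38, 10.27 and 10.80 in normoxia and 9.44, 9.82 and 8.53 in hyperoxia, and fell by 1.22 (adjusted p = 0.00674). Its other probe gave -0.75, and array weights gave -0.65 on the first. Klf4 fell by 0.74 (adjusted p = 0.0284), Bcl6 by 0.67 (adjusted p = 0.0216) and Cdx2 by 0.52 (adjusted p = 0.0358). Of these 4, Cdx1 alone was called in all 23 alternatives. The count was 1 without normoxia ileum replicate 2 or hyperoxia ileum replicate 3, and 2 without normoxia ileum replicate 1 or 3.

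The other regulators tested in the ileum were Thra, Hnf4a, Gata6, Hnf4g, Nr3c1 and Maf, with log2 fold changes from -0.29 to 0.35 that did not pass. With the mean of all its tested probes Gata6 was called higher (0.67, adjusted p = 0.0108). Nr3c1, the glucocorticoid receptor, whose hormone hastens the switch in rodents, had a change of -0.08 (95% interval -0.68 to 0.51) and was detected on 2 of 3 arrays in each group. In the lung Maf and Thra were called lower among 7 tested (-0.90 and -0.71), where 10.6% of all genes were. There 0 were called higher (0 also at an unadjusted p under 0.05). Maf was detected on 3 normoxia and 0 hyperoxia lung arrays, so it passed the detection filter through the normoxia arrays alone. Its -0.90 is the fitted change and no lower bound, and its call is a description. The count called lower was 0 without normoxia lung replicate 1 and without hyperoxia lung replicate 1 or 2.

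Enterocyte content was read from 14 epithelial markers, of which 11 were tested in the ileum. The keratin Krt20 fell by 2.08 (adjusted p = 7.64e-06), Krt19 by 1.40 (adjusted p = 0.00369) and Vil1, the villin of microvilli, by 0.47 (adjusted p = 0.0391), while the other 8, among them Epcam (0.05), Cdh17 (0.27) and the brush border phosphatase Alpi (-0.16), did not pass. The median change over the 11 was -0.16, and their mean log2 signal was 11.47 to 11.56 in normoxia and 10.95 to 11.28 in hyperoxia, without overlap. Krt20 and Krt19, with the largest falls of the 11, are part of this mean, and the mean without them was not taken. Krt20 is a marker of mature villus cells. Of the 11 epithelial markers tested, 3 were called lower and 0 higher, where 14.1% and 12.7% of all genes were. Lct, an enterocyte enzyme, did not pass the test. Of 10 smooth muscle and fibroblast markers 2 were higher and 1 lower, with a mean of 11.37 to 11.71 in normoxia and 11.84 to 12.10 in hyperoxia, and of 5 T cell markers 4 were lower. The part of cell content in the falls of Sis and Treh was not tested beyond these values.

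Other genes followed the members closely over the 6 ileum arrays. Likeness was measured as the root mean square difference of log2 signals, each relative to its normoxia mean, among 10870 genes, and genes found this way move with the member by construction. Nearest to Sis were Ptk6 (0.38), a kinase of differentiating gut epithelium, Nlrc5 (0.49), an activator of MHC class I genes, and Xpnpep2 (0.56), a brush border aminopeptidase. Nearest to Treh were Serpina10 (0.21), a secreted serpin, Ada (0.35), adenosine deaminase, and Pla2g2a (0.39), a secreted phospholipase. Their log2 fold changes were -2.83, -2.60 and -2.27, and -3.41, -3.81 and -2.87. For Lct, whose change did not pass the test, the nearest were Lama2 (0.11), Cxxc5 (0.11) and Syt9 (0.12).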

How the data were processed

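The authors deposited, for each of 12 arrays, the average signal intensity of each probe, with neither background subtraction nor normalization, and a detection p-value against the negative control probes. The submitters' processing notes name GenomeStudio 2011.1. A second set of intensities deposited by the authors, background-subtracted and normalized on a linear scale by a method not given in the sources used here, served only as an alternative. The number of arrays limits the precision.

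The function neqc of limma 3.58.1 (R 4.3.3) corrected the intensities for background, quantile-normalized them and put them on the log2 scale after adding 16. This step used all 45281 probes. Only the 34885 probes that name a single gene were then kept for testing, and 18 that name several and 10378 that name none were left out. No probe is named for Mgam by symbol, Entrez ID or synonym. Testing in a tissue required detection (p-value under 0.05) on 3 or more of its 6 arrays, so a gene can pass through the group in which it is high, and the brightest such probe stood for its gene. A limma model with 4 group means was fitted over 12 arrays for all genes. Benjamini-Hochberg adjustment ran over all genes of a comparison, with calls at an adjusted p under 0.05. Where a group detected a probe on no array, the fold is a lower bound against the lowest detected signal of each array.

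The members and gene lists were chosen with earlier results of these data known. The named genes are all members, the 4 genes with the strongest ileum statistic in a list, or any gene if the whole list is described, and the 3 genes most like Sis, Treh and Lct. Odc1 and Arg1 in the lung and the epithelial markers were named after their values were seen. Alternatives were no background correction, 75th percentile scaling, the deposited normalized values, detection filters, each tissue alone, ordinary and robust models, array weights, the replicate number as a block, the mean of all probes, and leaving out each array. Plots were made in Python 3.11.15 with matplotlib 3.10.9.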

Additional observations from a re-analysis of the deposited data

Results flagged for a closer look

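Changes with hyperoxia in ileum and lung were compared for 40 genes of the switch and the 3 lists (limma's interaction term, ileum minus lung, log2 scale). They differed for 14, both directions together (adjusted p under 0.05). Of all 12153 genes 12.3% were called higher and 13.3% lower. Called higher and lower were 0 and 4 of 8 switch genes and 2 and 0 of 15 endocytic genes. They were 2 and 5 of 12 arginine genes, which include Arg2 and Ass1, and 1 and 2 of 10 regulators. Among the switch genes the 14 held Sis (-2.62), Treh (-3.26), Arg2 (-2.53) and Ass1 (-1.35). Sis and Treh were detected on 0 lung arrays. Arg2 lay lower in hyperoxia ileum and higher in hyperoxia lung.

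Of the endocytic list, Rab11a differed by 1.33, with changes of 1.21 in the ileum and -0.11 in the lung, and Pllp by 1.57, with changes of -0.69 and -2.26. Pllp was detected on 1 hyperoxia ileum array and 0 hyperoxia lung arrays. Neither fall could be read below the detection limit, so the difference depends on the normoxia levels (5.97 in the ileum and 7.10 in the lung). Of the arginine list, Arg1 differed by -3.44, Odc1 by -1.65 and Slc7a7 by -0.96, while Cps1 (0.89) and Otc (1.11) were detected on 0 lung arrays. Of the regulators, Cdx1 differed by -1.11, read on another probe than in the ileum alone, Bcl6 by -0.98 and Thra by 1.06. Over 22 alternatives the difference was lost in 13 for Cps1 (adjusted p = 0.0484), 7 for Thra, 6 for Otc, 2 for Bcl6 and 1 each for Pllp and Arg1, and in 0 for the other 8 genes. With 3 arrays per group, no single array could be tested as an outlier.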

How the results depend on the processing

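Over 23 alternatives, 628 changes of the switch genes were compared: 613 stayed on their side of the threshold, 9 lost their call and 6 gained one. The sign turned in 6 of the 628, none called: Fcgrt in the ileum (-0.25 to 0.10) and the difference of Lrp2 between tissues (-0.38 without background correction). The falls of Sis (-3.17 to -2.28) and Treh (-3.56 to -2.03) were called in all 23. The causes of the shifts below were not tested. In the ileum, 5 members were called, and 3 without background correction (Arg2 and Lrp2 lost) and with 75th percentile scaling (Arg2 and Cubn lost), so that suckling-type genes called higher were 1 in place of 2. An ordinary linear model also lost Arg2. Suckling-type genes called higher were 1 to 2 when an array was left out. The endocytic list had 7 called higher in place of 11 with 75th percentile scaling, and 0 to 1 called lower when an array was left out. The arginine list had 1 lower in place of 2 without background correction, with that scaling and with an ordinary linear model, and 1 to 2 when an array was left out. The regulators had 1 higher with the mean of all probes and 2 lower in place of 4 with each tissue fitted alone, and 1 to 4 lower when an array was left out. All genes called in the ileum numbered 2995, 4673 with array weights, 1465 with each tissue alone and 1435 to 3624 when an array was left out, lowest without normoxia ileum replicate 3 and 1952 without replicate 2.

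In the lung, 2297 genes were called and 3851 with array weights, which also called 1 suckling-type gene lower (Fcgrt) and 2 endocytic genes lower in place of 1. When an array was left out these were 0 to 1 and 1 to 2. Lung regulators called lower were 1 in place of 2 without background correction, without the detection filter, with an ordinary linear model, with trend and robust moderation and with the replicate block, and 0 to 2 when an array was left out. Differences between tissues were called for 3113 genes and for 4686 with array weights. Probe by probe, 6 member probes were called in the ileum and 3 in the lung.

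Same-numbered arrays did not deviate together (correlations -0.24 to 0.09), and the numbers were not taken to pair them. Such correlations cannot show whether same-numbered ileum and lung arrays came from the same pup, so the pairing stays unknown. With the replicate block, 2569 ileum genes and 5 members were called. Assigning tissue by the source name could not be fitted, since tissue and exposure then coincide. Leaving-out fits kept the probes tested over all arrays. In the ileum Arg2 was detected on no hyperoxia array, Lrp2 on 1 normoxia array and Prdm1 on 1 array in all, which limits what can be said of them.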
